A study of Glycine max with 4 samples.

Results

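Leaves of soybean (*Glycine max*) seedlings that received salt together with melatonin (NaCl+Mt) were compared with leaves of seedlings that received water alone (H2O), which asks what still differed from water in salt-treated plants once melatonin was present. The comparison takes 2 of the 4 RNA-seq libraries of the study and all 55787 transcript models, which belong to 46367 loci. NaCl+Mt seedlings were given 1% NaCl and 100 µM melatonin, and H2O seedlings neither. The other 2 libraries, from seedlings given 1% NaCl alone (NaCl) or 100 µM melatonin alone (Mt), are shown as further levels. The labels give no genotype, and the methods name the cultivar SuiNong 28. The labels give an age of 3 weeks, whereas the results section of the study gives 2 weeks. The melatonin stock was made in ethanol and diluted in water, and a water control with the same ethanol is not mentioned in the sources used here, so melatonin and its solvent cannot be told apart. The sources used here do not say how many plants entered a library.

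High salt withdraws water from plant cells and loads them with sodium, and leaves under salt commonly close their stomata, lose photosynthetic capacity and redirect sugars and amino acids into protective compounds. Melatonin, an indoleamine made from tryptophan, acts in plants as an antioxidant and is known to ease several stresses. In the light reactions photosystem II splits water, photosystem I reduces ferredoxin, and the Calvin cycle then fixes carbon with the enzyme Rubisco.

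Each condition had 1 library, so no difference given here could be set against the spread of replicates, and no p-value was computed. Up- and down-regulated here means that RPKM + 0.1 in NaCl+Mt was at least 2-fold higher or lower than in H2O and that RPKM, the read count scaled by transcript length and by mapped reads of the library, was at least 1 in either library. Log2 values are of RPKM + 0.1, NaCl+Mt over H2O unless stated otherwise, and this scale understates the change of weakly expressed genes, except for those with reads and a listed RPKM of 0, whose change it can overstate. The standard error (SE) beside a log2 value comes from the 2 read counts and covers counting error only, not the spread between plants or libraries. It may understate even the counting error, because PCR copies cannot be told from separate molecules without molecular identifiers. The counts summed to 36945028 reads in NaCl+Mt, 28868062 in NaCl, 23479688 in Mt and 22908979 in H2O. A count of 3 reads, used as the floor below which a level is not resolved, corresponded to 0.0640 RPKM in NaCl+Mt and 0.103 RPKM in H2O for a transcript of 1 kb. In each library 4628 to 5430 transcripts carried reads although the table gave them an RPKM of 0, and the reads of such transcripts are given where they are named.

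Most leaf transcripts lay close to their water level in NaCl+Mt. Of 38305 transcripts that passed the RPKM filter, 30064 (78.5%) differed from H2O by less than 1.5-fold, and the median log2 was -0.06 (quartiles -0.31 and 0.22). Up-regulated transcripts numbered 1886 (4.92%) and down-regulated transcripts 1388 (3.62%). With 1 transcript for each of 29961 loci, 1611 loci (5.38%) rose past the threshold and 1201 (4.01%) fell past it. Larger differences leaned to the upper side. A fold of at least 4 was reached by 496 transcripts upward and 245 downward, and a fold of at least 16 by 151 upward and 35 downward. For 762 up-regulated and 593 down-regulated transcripts the 95% counting interval lay wholly beyond 2-fold. Among the calls, 201 up-regulated and 55 down-regulated transcripts had over 3 reads but an RPKM of 0 in NaCl+Mt or H2O. The counts at folds of at least 4 and 16 include such transcripts, whose change can be overstated. They were not repeated without them, so their part in the lean to the upper side was not tested. The comparisons NaCl:H2O and Mt:H2O share the H2O library with this comparison, and their median log2 values were -0.12 and 0.05.

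The up-regulated calls were not spread evenly over levels of expression. Among transcripts with 1 to 2 RPKM in the higher library, 11.1% were up- and 9.17% down-regulated, which fell to 2.79% and 2.10% between 10 and 20 RPKM. Among the most abundant leaf transcripts the upward calls became frequent again and the downward calls did not. At 100 RPKM or more, 118 of 1246 transcripts (9.47%) were up-regulated, against 33 (2.65%) down-regulated. At 1000 RPKM or more, 7 of 31 were up-regulated and 0 were down-regulated.

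Short transcripts were called more often than long ones in both directions. In the shortest of 5 equal classes of length (114 to 603 bases) 7.74% of the transcripts were up- and 5.10% down-regulated, and the median log2 was 0.02. In the longest class (1749 to 72546 bases) 1.87% were up- and 3.14% down-regulated, and the median log2 was -0.19. The same 5 classes had medians between -0.13 and -0.10 in NaCl:H2O and between -0.00 and 0.11 in Mt:H2O. The part of length in single results was not tested, except that the pathway values below were also computed after log2 was centred on its median within 20 bins of length.

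**Figure D1:**
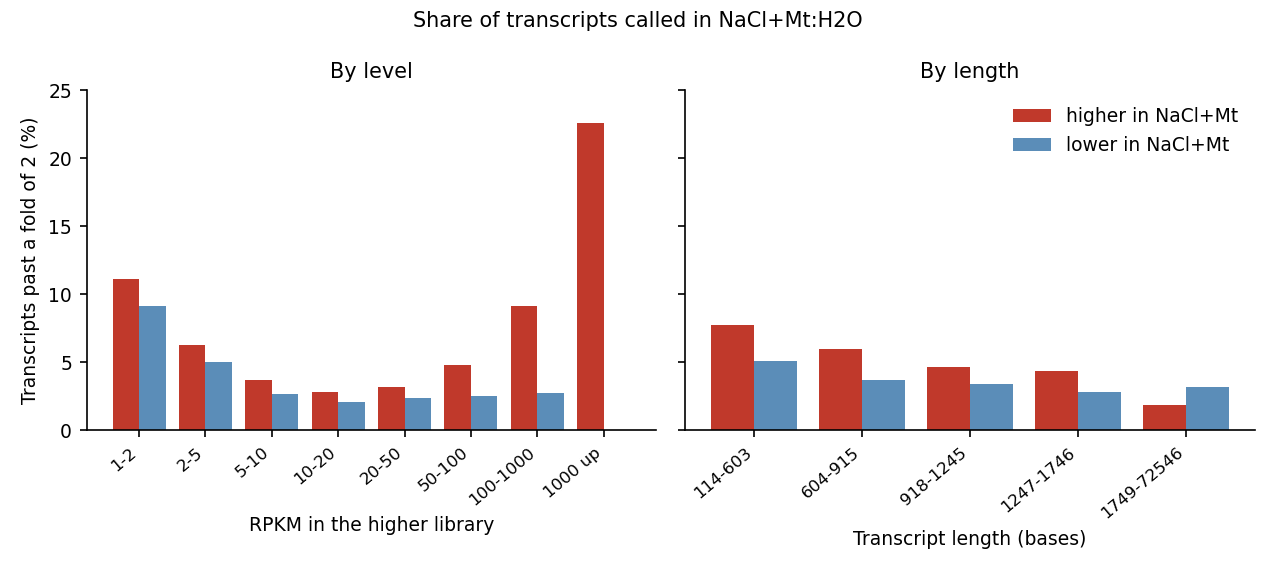
Percentage of transcripts that passed the filter and were called at 2-fold or more in NaCl+Mt:H2O (vertical axis, from 0), by RPKM in the higher library (left) and by transcript length in bases in 5 equal classes (right), with red bars for transcripts higher in NaCl+Mt and blue bars for transcripts lower in NaCl+Mt. Upward calls were most frequent below 2 RPKM and from 100 RPKM up, where the topmost class holds 31 transcripts, and they became rarer with length, falling below the downward calls in the longest class. Models of the same locus were counted separately, as for Glyma08g14670 in the topmost class.

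Pathways were read from the gene annotation sheet of the study, which lists 211 loci in 11 pathways. The study chose these loci on the same libraries, so their direction is not independent evidence. Of the 211 loci, 126 passed the filter. Up-regulation was called at 37 loci and down-regulation at 6, beside 5.38% and 4.01% of all loci that passed. Photosynthesis held 15 of the 37 up-regulated loci, and starch and sucrose metabolism held 8. Near-identical copies are common in the duplicated soybean genome. The methods of the study count uniquely mapped reads, but the files do not show whether the deposited counts follow this, so the values of near-identical loci are uncertain.

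**Figure D2:**
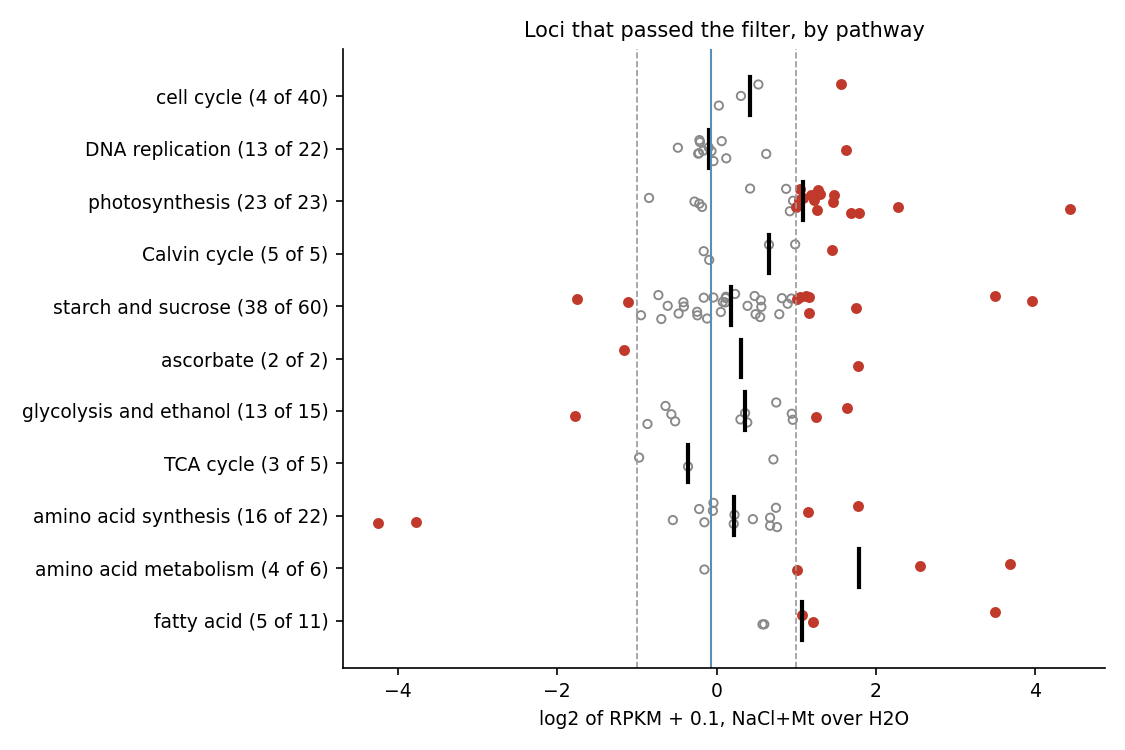
Log2 of RPKM + 0.1, NaCl+Mt over H2O (horizontal axis), of each locus that passed the filter in 11 pathways, with the number that passed of the number listed beside the name of each pathway. Filled red points are loci called at a fold of at least 2 (dashed lines), open points are not called, black bars are pathway medians and the blue line is the median of all loci, -0.06. Photosynthesis, with a median of 1.09, lies mostly on the upper side, whereas DNA replication, with a median of -0.10, lies close to the blue line.

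Most of the 23 loci that the study lists for the photosynthetic light reaction were higher in NaCl+Mt than in H2O. The other 4 were lower without being called (*PsaA*, 2 loci of *PetF* and the ATP synthase subunit *ATPF1A*, with log2 values from -0.85 to -0.18). All 23 listed loci passed the filter, with 15 up- and 0 down-regulated, beside 5.38% and 4.01% of all loci. Their median log2 was 1.09, against -0.06 for all loci that passed the filter. For the same loci the median was 1.20 in NaCl:H2O and 2.27 in Mt:H2O. Among the 15 up-regulated loci, H2O had the lowest level of the 4 libraries for 14 and Mt the highest for 15, and NaCl+Mt lay below both NaCl and Mt for 11. The choice of up-regulated loci itself favours a low place for H2O. The choice of the lists by the study, on these same libraries, can favour a high place for Mt as well. Over all listed loci that passed, the median log2 in Mt:H2O was 2.29, against -0.02 for all loci. The order of the 4 libraries is therefore a description of these loci only. These loci were short, with a median transcript length of 465 bases. After centring within bins of length, the median was 1.06 and 15 loci were still called. Since a leaf is a mixture of cell types, a change in the share of mesophyll cells and a change in RNA per cell cannot be told apart here.

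Photosystem I had the most abundant transcripts of the group, and 7 of its 8 listed loci were up-regulated, beside 5.38% of all loci. *PsaF* (Glyma05g00620), the docking subunit for the electron donor on the lumen side, had 709 RPKM in NaCl+Mt, 955 in NaCl, 1414 in Mt and 289 in H2O (log2 1.30, SE 0.0214). *PsaH* (Glyma13g43370), a small subunit at the side where light-harvesting complexes dock, had 89.9 RPKM in NaCl+Mt, 169 in NaCl, 283 in Mt and 26.0 in H2O, which gave the largest log2 of the photosystem loci, 1.79 (SE 0.0877). Both genes had their lowest level in H2O, and NaCl+Mt came next above it. The 2 *PsaO* loci followed another order, with NaCl+Mt above NaCl. Glyma11g18640 had 359 RPKM in NaCl+Mt, 221 in NaCl, 827 in Mt and 131 in H2O (log2 1.46, SE 0.0397). Glyma12g09730 had 127 RPKM in NaCl+Mt, 55.1 in NaCl, 170 in Mt and 39.6 in H2O (log2 1.68, SE 0.0751). Subunits of the photosystem I periphery came next. *PsaG* reached a log2 of 1.09 at Glyma04g12510 and 1.27 at Glyma06g48030, and *PsaK* (Glyma09g11460) 1.22. *PsaA* (Glyma04g22110), which encodes a core protein that binds the reaction-centre chlorophyll, was the exception, with 17 reads in NaCl+Mt, 20 in NaCl, 100 in Mt and 20 in H2O. Its log2 of -0.85 had an SE of 0.476 and was not called. *psaA* is a gene of the chloroplast genome in land plants, whereas this locus is named for chromosome 4.

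Of 9 listed photosystem II loci 5 were up-regulated, beside 5.38% of all loci. Their median log2 was 1.00, beside 1.28 over the 8 listed photosystem I loci. The up-regulated loci included all 4 loci that the study lists for the extrinsic proteins that shield the oxygen-evolving cluster. *PsbP* (Glyma08g41660) had 182 RPKM in NaCl+Mt, 247 in NaCl, 410 in Mt and 80.0 in H2O (log2 1.18, SE 0.0379). Its second locus, Glyma18g52340, had 20.2 RPKM in NaCl+Mt and 9.81 in H2O (log2 1.04, SE 0.116). *PsbO* (Glyma02g06830) had 78.2 RPKM in NaCl+Mt, 119 in NaCl, 160 in Mt and 37.9 in H2O (log2 1.04, SE 0.0499). *PsbQ* (Glyma12g34320), with 29.1 RPKM in NaCl+Mt and 14.5 in H2O, stood at the threshold itself (log2 1.00, SE 0.0925), and with a pseudocount of 1 neither *PsbQ* nor the second *PsbP* locus was called. The small subunit *PsbY* (Glyma11g37580) had 36.5 RPKM in NaCl+Mt, 81.1 in NaCl, 90.2 in Mt and 15.2 in H2O (log2 1.26, SE 0.0998). The assembly factor *Psb28* was just under the threshold at both loci, with log2 values of 0.96 (Glyma10g04630) and 0.92 (Glyma13g18930). *PsbZ* and *PsbE* were covered by no more than 37 reads in NaCl+Mt and had log2 values of 0.87 (SE 0.481) and 0.42 (SE 0.423).

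Ferredoxin, which carries electrons away from photosystem I, split into loci above and loci near the water level. *PetF* Glyma12g29090 had 44.5 RPKM in NaCl+Mt, 4.79 in NaCl, 112 in Mt and 9.06 in H2O (log2 2.28, SE 0.142). Its neighbour in the locus names, Glyma12g29100, had 11.3 RPKM in NaCl+Mt, 12 in NaCl, 90.2 in Mt and 4.01 in H2O (log2 1.48, SE 0.221). *PetF* Glyma11g00800 had 30 reads in NaCl+Mt and 1 read in H2O, which is at least 6.23-fold higher in NaCl+Mt against the floor of 3 reads. The other two loci, Glyma10g42540 and Glyma20g24500, were not called. They had 19.3 and 28.8 RPKM in NaCl+Mt, 3.68 and 6.59 in NaCl, 14.1 and 21.7 in Mt, and 21.9 and 34.9 in H2O, with log2 values of -0.18 (SE 0.109) and -0.28 (SE 0.0878). Thus, at 3 of the 5 ferredoxin loci (Glyma12g29090, Glyma10g42540 and Glyma20g24500), the NaCl level lay below both NaCl+Mt and H2O.

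In the Calvin cycle the Rubisco small subunit stood well above its water level. *rbcS* (Glyma13g07610), the most abundant locus of all 211, had 2781 RPKM in NaCl+Mt, 3530 in NaCl, 5644 in Mt and 1019 in H2O (log2 1.45, SE 0.0126). This marker of leaf mesophyll was thus abundant in all 4 libraries. Loci for markers of nodules or seeds are not named in the sources used here and were not examined. Of the 5 loci that the study lists for the Calvin cycle *rbcS* was the 1 that was up-regulated. Down-regulated loci numbered 0, and the shares among all loci were 5.38% up and 4.01% down. *PGK* (Glyma15g41540), phosphoglycerate kinase, had 97.9 RPKM in NaCl+Mt, 146 in NaCl, 195 in Mt and 49.4 in H2O and fell just short of the call (log2 0.99, SE 0.0361). It passed with TMM scaling (log2 1.05). Triosephosphate isomerase (*TIM*, Glyma13g20930) had a log2 of 0.66 (SE 0.0954). The glyceraldehyde-3-phosphate dehydrogenases showed another picture, with NaCl+Mt next to H2O and NaCl far below both. Their place in the Calvin cycle is the assignment of the study, which names the same genes under glycolysis as well. Their values are therefore not read here as levels of a Calvin cycle enzyme. *GAPC1* (Glyma11g37360) had 46.4 RPKM in NaCl+Mt, 3.18 in NaCl, 6.72 in Mt and 51.9 in H2O (log2 -0.16, SE 0.0477). *GAPCP-2* (Glyma03g22790) had 39.7 RPKM in NaCl+Mt, 6.17 in NaCl, 34.3 in Mt and 42.3 in H2O (log2 -0.09, SE 0.0472).

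**Figure D3:**
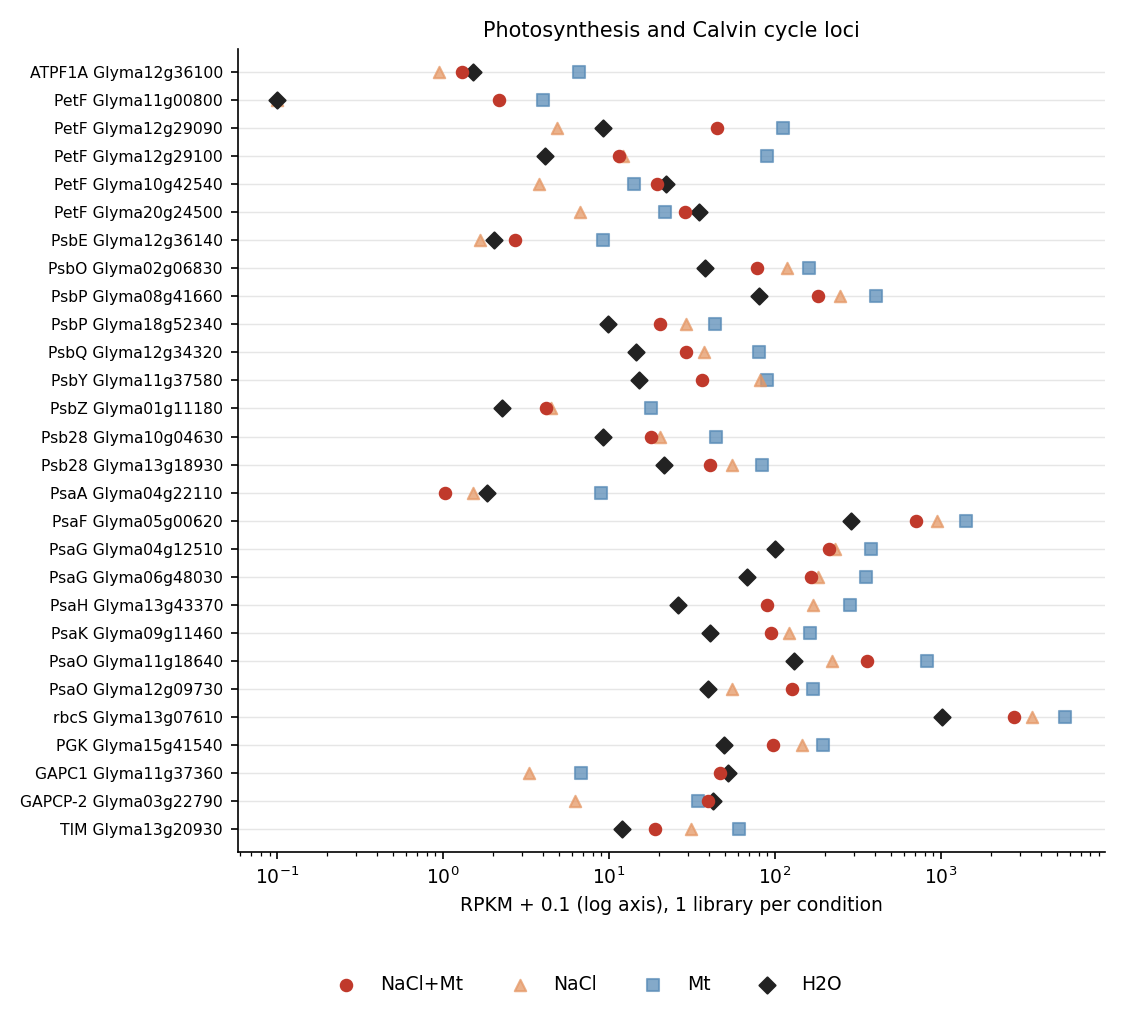
RPKM + 0.1 (log axis) of the 23 photosynthesis and 5 Calvin cycle loci in NaCl+Mt (red circles), NaCl (orange triangles), Mt (blue squares) and H2O (black diamonds), with 1 library per condition and so no error bars. For most photosystem loci H2O lies left of the other libraries and Mt farthest right, as for *PsaF* with 709 RPKM in NaCl+Mt and 289 in H2O. The study chose the loci on these same libraries, which can favour this order. *GAPC1* and *GAPCP-2* lie beside H2O in NaCl+Mt.

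Starch and sucrose metabolism was the largest list. Of 60 loci 38 passed the filter, with 8 up- and 2 down-regulated, beside 5.38% and 4.01% of all loci, and the median log2 was 0.18. Pectin enzymes, which build and de-esterify the galacturonan of the cell wall, gave 3 of the up-regulated loci, out of 12 pectin loci that passed. The pectinesterase *PecEST* Glyma17g04940 had 11.0 RPKM in NaCl+Mt, 0.780 in NaCl, 9.91 in Mt and 0.879 in H2O (log2 3.50, SE 0.234). A second *PecEST* locus, Glyma15g20550, had 3.87 RPKM in NaCl+Mt and 1.68 in H2O (log2 1.16, SE 0.184). The galacturonosyltransferase *GAUT* Glyma12g16550 had 110 reads in NaCl+Mt and 14 in H2O, where RPKM was listed at 0, and its log2 from the counts was 1.97 (SE 0.409). The other 5 *GAUT* loci that passed lay between -0.16 and 0.94. The pectin methylesterases *PecMET* Glyma16g01650 and Glyma07g05150, abundant in Mt with 39.5 and 54.0 RPKM, had log2 values of 0.56 and 0.05 in NaCl+Mt.

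The other 5 up-regulated loci were a cellulase, 2 β-glucosidases, a hexokinase and a phosphoglucomutase. The cellulase *CEL2* (Glyma18g03470) had 13.1 RPKM in NaCl+Mt, 0.875 in NaCl, 20.5 in Mt and 6.30 in H2O (log2 1.04, SE 0.0985). Among β-glucosidases, which free glucose from glycosides, *BGLU* Glyma09g30910 had 4.46 RPKM in NaCl+Mt, 1.11 in NaCl, 35.9 in Mt and 1.26 in H2O (log2 1.75, SE 0.209). *BGLU* Glyma07g38850 had 10.01 RPKM in NaCl+Mt, 6.63 in NaCl, 21.2 in Mt and 4.54 in H2O (log2 1.12, SE 0.112). Over β-glucosidases and other glycosyl hydrolases (*BGLU* and *GH*), 10 of 15 loci passed, and their median log2 was 0.11. Of the 10, 2 were up-regulated and 0 were down-regulated, beside 5.38% and 4.01% of all loci. At 4 of the 10 the log2 was below 0, down to -0.95 at *BGLU* Glyma15g03620, with 5.92 RPKM in NaCl+Mt and 11.5 in H2O. Hexokinase phosphorylates glucose. *HK* (Glyma11g10130) had 2.24 RPKM in NaCl+Mt, 0.437 in NaCl, 8.60 in Mt and 0.948 in H2O (log2 1.16, SE 0.25). Phosphoglucomutase, which links glucose-1-phosphate and glucose-6-phosphate, had the highest mean RPKM of the list over the 4 libraries. *PGM* (Glyma10g38590) had 102 RPKM in NaCl+Mt, 307 in NaCl, 43.3 in Mt and 50.6 in H2O (log2 1.01, SE 0.0313), so its highest level was in NaCl and Mt lay slightly below H2O.

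The down-regulated loci of the list were an invertase and a sugar transferase. The cell wall invertase *ATBFRUCT1* Glyma13g42530, of a family that splits sucrose outside the cell, had 3.53 RPKM in NaCl+Mt, 1.37 in NaCl, 0.741 in Mt and 7.76 in H2O (log2 -1.11, SE 0.113). The glycosyltransferase *UGT* Glyma19g03000 had 4.03 RPKM in NaCl+Mt, 1.01 in NaCl, 8.51 in Mt and 13.8 in H2O (log2 -1.75, SE 0.109). Both were lower in NaCl than in NaCl+Mt. The vacuolar invertase *ATBETAFRUCT4* Glyma17g14750, named after its values were seen, had 102 RPKM in NaCl+Mt, 20.04 in NaCl, 22.1 in Mt and 110 in H2O. Its log2 of -0.12 (SE 0.0236) put NaCl+Mt beside water and apart from NaCl and Mt.

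In glycolysis and ethanol metabolism 13 of 15 loci passed, with 2 up- and 1 down-regulated, beside 5.38% and 4.01% of all loci, and the median log2 was 0.36. Enolase (*ENO*, Glyma09g28100), which forms phosphoenolpyruvate, had 5.90 RPKM in NaCl+Mt, 2.74 in NaCl, 6.603 in Mt and 20.5 in H2O (log2 -1.78, SE 0.0907). The aldehyde dehydrogenase *ALDH3F* (Glyma12g06130) had 1.39 RPKM in NaCl+Mt and 0.530 in H2O (log2 1.24, SE 0.335). The 2 *GroES-like* dehydrogenase loci lay on opposite sides of water. Glyma07g18130 had 1.45 RPKM in NaCl+Mt, 5.46 in NaCl, 4.80 in Mt and 0.398 in H2O (log2 1.64, SE 0.417). Glyma01g28850 had 16.9 RPKM in NaCl+Mt, 3.53 in Mt and 24.3 in H2O (log2 -0.52, SE 0.0681), with 9 reads and an RPKM listed at 0 in NaCl. The loci of the list with the highest mean RPKM over the 4 libraries were the fructose-bisphosphate aldolases, and neither was called. *ALDO* Glyma12g04150 had 176 RPKM in NaCl+Mt, 438 in NaCl, 203 in Mt and 90.6 in H2O (log2 0.96, SE 0.0295). *ALDO* Glyma11g11870 had 74.2 RPKM in NaCl+Mt, 202 in NaCl, 85.5 in Mt and 44.1 in H2O (log2 0.75, SE 0.0430). Phosphofructokinase, which commits sugar to glycolysis, was near water in NaCl+Mt and low in both single treatments. *PFK* (Glyma05g36050) had 9.94 RPKM in NaCl+Mt, 0.846 in NaCl, 1.58 in Mt and 7.59 in H2O (log2 0.39, SE 0.101). Alcohol dehydrogenase (*ADH1*, Glyma04g41990) had 8.85 RPKM in NaCl+Mt, 37.3 in NaCl, 4.24 in Mt and 16.2 in H2O (log2 -0.87, SE 0.0907). In the tricarboxylic acid cycle 3 of 5 loci passed and 0 were called, beside the same shares of all loci. Fumarase (*FUM2*, Glyma02g01930) had 2.82 RPKM in NaCl+Mt, 4.50 in NaCl, 37.8 in Mt and 3.65 in H2O (log2 -0.36, SE 0.159), and the 2 *ACLA* loci of ATP-citrate lyase had log2 values of -0.97 (Glyma03g38810, SE 0.0925) and 0.71 (Glyma15g42140, SE 0.132).

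Both loci listed for ascorbate metabolism were called, in opposite directions, beside 5.38% up- and 4.01% down-regulated among all loci. Ascorbate peroxidase 4 (*APX4*, Glyma02g37160), named for the enzymes that reduce hydrogen peroxide with ascorbate, had 8.89 RPKM in NaCl+Mt, 1.03 in NaCl, 42.7 in Mt and 2.52 in H2O (log2 1.78, SE 0.178). *VTC4* (Glyma07g39620), an L-galactose-1-phosphate phosphatase of ascorbate synthesis, had 2.39 RPKM in NaCl+Mt, 2.54 in Mt and 5.47 in H2O (log2 -1.16, SE 0.197). In NaCl it had 4 reads and an RPKM listed at 0.

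For amino acid synthesis 16 of 22 loci passed, with 2 up- and 2 down-regulated, beside 5.38% and 4.01% of all loci, and the median log2 was 0.22. The up-regulated loci both belong to tryptophan synthesis. *trpE* (Glyma18g03270), for anthranilate synthase, had 1.42 RPKM in NaCl+Mt, 1.28 in NaCl, 11.8 in Mt and 0.344 in H2O (log2 1.77, SE 0.387). *trpB* (Glyma11g00580), for the β chain of tryptophan synthase, had 6.85 RPKM in NaCl+Mt, 10.1 in Mt and 3.03 in H2O (log2 1.15, SE 0.147), with 4 reads and an RPKM listed at 0 in NaCl. The down-regulated loci concern lysine, and neither was listed above 0 in NaCl+Mt. *dapA* (Glyma03g02530), for the entry enzyme of lysine synthesis, had 7 reads in NaCl+Mt, 26 in NaCl, 2 in Mt and 58 in H2O, a log2 from the counts of -3.01 (SE 0.577). *ALD1* (Glyma08g19250), for an aminotransferase that in *Arabidopsis* makes a lysine-derived defence signal, had 9 reads in NaCl+Mt, 8 in NaCl, 1 in Mt and 50 in H2O, a log2 from the counts of -2.50 (SE 0.522). Both loci are themselves among the transcripts with over 3 reads and an RPKM of 0, so leaving such transcripts out removes both calls by construction. With RPKM recomputed from the counts the list still had 2 down-regulated loci. The abundant cysteine synthases stayed close to water, with 216 RPKM in NaCl+Mt and 185 in H2O for *cysK* Glyma19g43150 (log2 0.22, SE 0.0246) and 69.2 RPKM in NaCl+Mt and 71.1 in H2O for *CYSC1* (log2 -0.04, SE 0.0383). The proline genes *P5CS2* and *proC*, a pathway known for its response to salt, gave log2 values between -0.05 and 0.67 at the 3 loci that passed for both genes, and none was called.

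Polyamine synthesis, part of the list for amino acid metabolism, was called upward at 3 of 4 loci that passed, beside 5.38% of all loci. Agmatinase (*speB*, Glyma03g03270), which forms putrescine, had 13.8 RPKM in NaCl+Mt, 1.05 in NaCl, 18.7 in Mt and 2.27 in H2O (log2 2.55, SE 0.181). Spermidine synthase (*SPDS*) was called at Glyma08g39810, with 3.32 RPKM in NaCl+Mt and 1.60 in H2O (log2 1.01, SE 0.240). *SPDS* Glyma10g39440 had 56 reads in NaCl+Mt and 11 in H2O, where RPKM was listed at 0, and its log2 from the counts was 1.44 (SE 0.476). The third, Glyma20g28340, had a log2 of -0.15 (SE 0.158). Acetylserotonin methyltransferase (*ASMT*), the enzyme family of the last step of melatonin synthesis, was hardly detected outside Mt. *ASMT* Glyma06g44010 had 10 reads in NaCl+Mt, 4 in NaCl, 786 in Mt and 0 in H2O, and Glyma18g50470 had 2, 3, 159 and 0 reads in the same libraries. Neither locus passed the filter.

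Of 11 loci for fatty acid synthesis 5 passed, with 3 up- and 0 down-regulated, beside 5.38% and 4.01% of all loci. *KAS I* among them had an RPKM listed at 0 in H2O, and with RPKM recomputed from the counts 3 loci were still up-regulated. *FAD8* Glyma03g07570, for a plastid desaturase, had 21.5 RPKM in NaCl+Mt, 11.4 in NaCl, 47.4 in Mt and 9.24 in H2O (log2 1.21, SE 0.0847). *KCS11* Glyma10g32260, for an elongase of very long chain fatty acids, had 4.42 RPKM in NaCl+Mt, 21.0 in NaCl, 13.2 in Mt and 2.05 in H2O (log2 1.07, SE 0.172). *KAS I* Glyma05g36690, for a condensing enzyme of the plastid, had 71 reads in NaCl+Mt and 5 in H2O, where RPKM was listed at 0, with a log2 from the counts of 2.38 (SE 0.668).

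**Figure D4:**
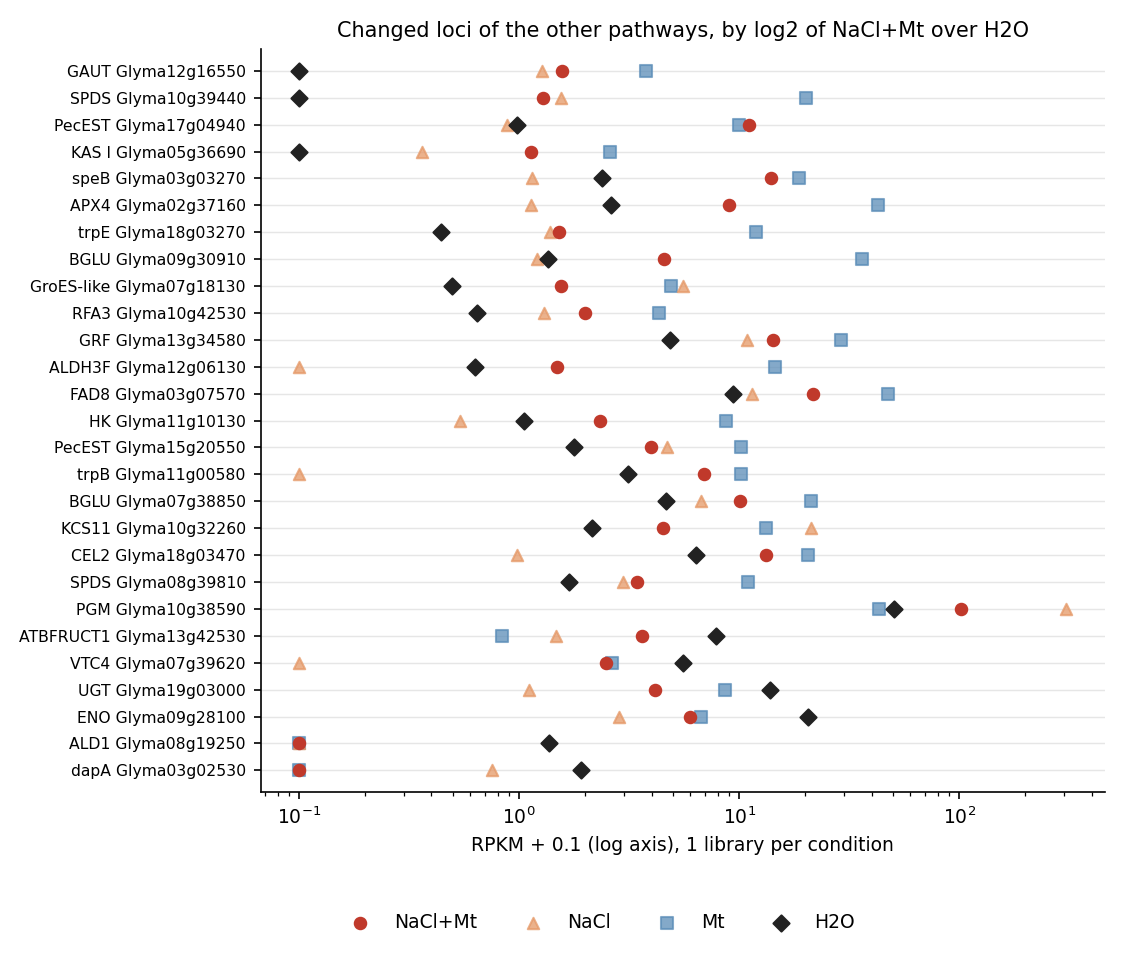
RPKM + 0.1 (log axis) of the 27 called loci of the other pathways in NaCl+Mt (red circles), NaCl (orange triangles), Mt (blue squares) and H2O (black diamonds), ordered from the largest rise to the largest fall of NaCl+Mt over H2O, with 1 library per condition and so no error bars. Points at the left edge were listed at an RPKM of 0. The 21 up-regulated loci stand above the 6 down-regulated ones, as for *speB* with 13.8 RPKM in NaCl+Mt and 2.27 in H2O.

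Cell division genes, which were higher in Mt than in H2O, had low levels in both NaCl+Mt and H2O, and 36 of 40 cell cycle loci had an RPKM below 1 in both. Of the 4 cell cycle loci that passed the filter 1 was up- and 0 were down-regulated, beside 5.38% and 4.01% of all loci, and 7 of the 40 had no more than 3 reads in either library. The 18 loci of cyclins A and B together had a summed RPKM, computed from the counts, of 4.98 in NaCl+Mt, 10.2 in NaCl, 163 in Mt and 3.94 in H2O, and 1 of them passed. The up-regulated locus was *GRF* Glyma13g34580, a 14-3-3 type general regulatory factor that is not specific to division, with 14.2 RPKM in NaCl+Mt, 10.8 in NaCl, 29.1 in Mt and 4.74 in H2O (log2 1.56, SE 0.159). Of 22 DNA replication loci 13 passed, with 1 up- and 0 down-regulated, beside the same shares of all loci, and the median log2 was -0.10. The 9 *MCM* loci of the replicative helicase that passed lay between -0.49 and -0.04, and their median was -0.21. Over all 12 *MCM* loci the summed RPKM from the counts was 15.3 in NaCl+Mt, 13.6 in NaCl, 103 in Mt and 16.9 in H2O. The called locus was *RFA3* Glyma10g42530, a small subunit of the single-strand binding protein, with 39 reads in NaCl+Mt and 7 in H2O (log2 1.63, SE 0.592). Another *RFA3* locus, Glyma20g24590, had 3.26 RPKM in NaCl+Mt and 2.98 in H2O (log2 0.12, SE 0.342).

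The study also lists 28 transcripts as raised over H2O in each of the 3 treatments. That list was drawn from this comparison among others, so its values are a description and cannot count as a result. All 28 had positive log2 values, 24 passed the filter, and 7 had no more than 3 reads in H2O. With levels from the counts, the floor of 3 reads in place of fewer and no pseudocount, log2 ran from 2.60 to 6.75 in NaCl+Mt:H2O, with a median of 3.44. On the scale of RPKM + 0.1 the median was 3.26 in NaCl+Mt:H2O, 3.76 in NaCl:H2O and 4.65 in Mt:H2O. The most abundant was the transcript annotated as *RD22* (Glyma04g35130.1), a dehydration-responsive gene of *Arabidopsis*, with 638 RPKM in NaCl+Mt, 2744 in NaCl, 1805 in Mt and 67.8 in H2O (log2 3.23, SE 0.0260). A putative acid phosphatase (Glyma07g01730.1) had 530 RPKM in NaCl+Mt, 609 in NaCl, 2252 in Mt and 57.0 in H2O (log2 3.21, SE 0.0417). The order of the treatments thus differed between the 2 transcripts, with NaCl+Mt lowest of the treatments for both.

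Genes of light harvesting and chlorophyll were also in that list. *LHCB4.3* (Glyma11g35130.1), a minor antenna protein of photosystem II, had 53.7 RPKM in NaCl+Mt, 73.7 in NaCl, 45.5 in Mt and 8.87 in H2O (log2 2.58, SE 0.102). *CHLM* (Glyma08g01060.1), a methyltransferase of chlorophyll synthesis, had 13.8 RPKM in NaCl+Mt, 12.8 in NaCl, 36.8 in Mt and 1.33 in H2O (log2 3.28, SE 0.241). Arabinogalactan proteins of the cell surface were highest in Mt, and *AGP17* (Glyma01g39810.1) had 19.1 RPKM in NaCl+Mt, 11.99 in NaCl, 102 in Mt and 1.04 in H2O (log2 4.07, SE 0.313). Several lipid and wax genes were highest in NaCl instead. A lipid transfer protein (Glyma18g41320.1) had 152 reads in NaCl+Mt and 3 in H2O, at least 31.6-fold higher in NaCl+Mt against the floor, and the cycloartenol synthase *CAS1* (Glyma20g33450.1), for a step of sterol synthesis, had 519 reads in NaCl+Mt and 3 in H2O, at least 108-fold higher. A putative *CER1* protein (Glyma03g24320.1), of a family that makes wax alkanes, had 106 reads in NaCl+Mt, 7010 in NaCl, 166 in Mt and 4 in H2O. Its RPKM in H2O was listed at 0, and its log2 from the counts was 2.86 (SE 0.735).

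**Figure D5:**
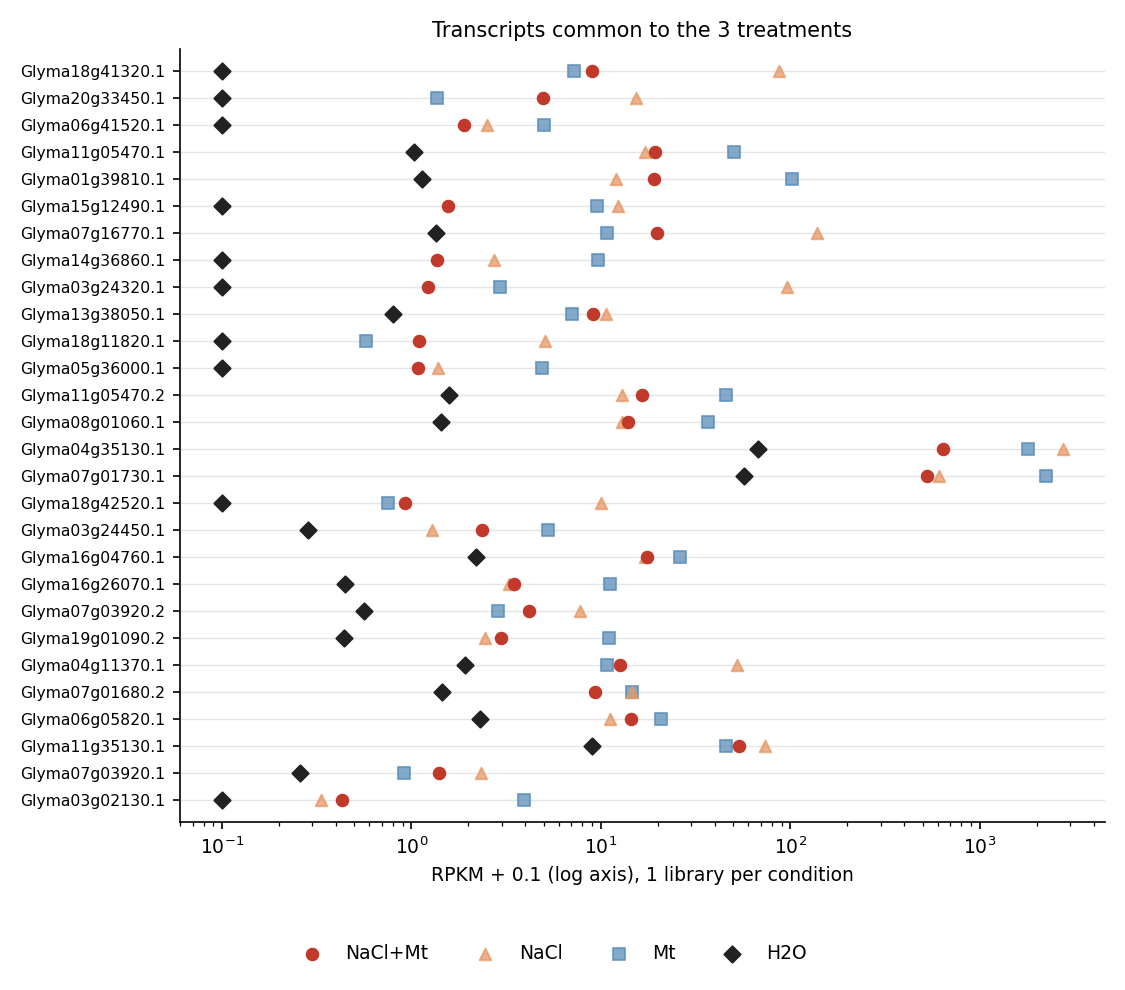
RPKM + 0.1 (log axis) of the 28 transcripts that the study lists as raised in each treatment, in NaCl+Mt (red circles), NaCl (orange triangles), Mt (blue squares) and H2O (black diamonds), ordered by log2 of NaCl+Mt over H2O, with 1 library per condition and so no error bars. H2O is leftmost for all 28, which the choice of the list required, and the lowest treated level was that of NaCl+Mt for 8 of them.

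Outside these lists the files do not pair locus names with gene names, so 4 transcripts are given by their names alone. They were picked from called transcripts after leaving out those with over 3 reads but an RPKM of 0 in NaCl+Mt or H2O. Larger changes exist among those left out, since log2 over all loci that passed the filter ran from -7.22 to 9.35. On the scale of RPKM + 1, Glyma15g30110.1 had the largest rise of the transcripts kept. It had 73.1 RPKM in NaCl+Mt, 9.74 in NaCl, 4.04 in Mt and 3.50 in H2O (log2 4.35, SE 0.214). Of those kept, the most abundant up-regulated transcript that belongs to no list was Glyma08g14670.3, with 2088 RPKM in NaCl+Mt, 1521 in NaCl, 180 in Mt and 571 in H2O (log2 1.87, SE 0.0106). It is 1 of 3 models of its locus, whose counts were nearly alike, 128371 to 144693 in NaCl+Mt and 21885 to 25387 in H2O, so the same reads may have been counted on each. Glyma03g28850.1 had the largest fall of the transcripts kept, with 22.0 RPKM in NaCl+Mt, 17.8 in NaCl, 462 in Mt and 290 in H2O (log2 -3.72, SE 0.0466). The most abundant down-regulated transcript of those kept, Glyma01g27840.1, had 131 RPKM in NaCl+Mt, 74.1 in NaCl, 67.2 in Mt and 351 in H2O (log2 -1.43, SE 0.0186).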

How the data were processed

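Leaf RNA from soybean seedlings under 4 conditions was sequenced by the study, with 1 library each. The authors trimmed adaptors, removed low-quality reads and mapped the rest to the soybean genome with BWA 0.7.4, and they deposited mapped read counts and RPKM for each transcript model. The methods define RPKM on uniquely mapped reads. The build and the handling of strand are not given in the sources used here. The deposited RPKM, however, equalled count over length and over a library divisor (46886153 for NaCl+Mt and 29231290 for H2O) that corresponds to all mapped reads, except where reads were listed at 0. From the files, log2 of RPKM + 0.1 was computed, with an RPKM filter of 1, a 2-fold threshold and a floor of 3 counts. Loci were represented by the transcript with the highest mean RPKM. TMM factors came from edgeR 4.0.16 (R 4.3.3), and all else from Python 3.11.15 with pandas 2.3.3. No test across replicates exists, and the depth sets counting error only.

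The transcripts named are, for each pathway list of the study, the most abundant locus and the called loci, with further loci of their families chosen after values were seen, some annotated members of the common list chosen in the same way, and the largest and most abundant changes. The last rule was limited to 2 names that rose and 2 that fell, since the reference gene table matched 0 loci. Lists by gene description could therefore not be made, and no sequence was printed. Members and lists were chosen with earlier results of these data known.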

Additional observations from a re-analysis of the deposited data

Results flagged for a closer look

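A set of 54 transcripts was listed at an RPKM of 0 in both NaCl+Mt and H2O although NaCl+Mt or H2O held 100 reads or more, with up to 3210 reads in NaCl+Mt and 4439 in H2O. These reads are a signal that the comparison of RPKM values cannot see. The reason for the listing was not tested.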

How the results depend on the processing

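Low values set how many transcripts were called. Against 1886 up- and 1388 down-regulated transcripts, a pseudocount of 1 gave 1211 and 747, a filter of RPKM 5 gave 962 and 635, a fold of at least 4 gave 496 and 245, and no filter gave 3733 and 2226. With a pseudocount of 0.01, TMM or median-of-ratios scaling, RPKM recomputed from the counts or 1 transcript per locus, up-regulated calls numbered 1611 to 2144 and down-regulated calls 1201 to 1485. With log2 centred within bins of length, an alternative added after the data were seen, they numbered 2001 and 1258, and without transcripts that had over 3 reads and an RPKM of 0, also added later, 1685 and 1333. TMM scaling moved the median of all transcripts to 0.01. Among the pathway loci, under TMM and median-of-ratios scaling *PGK*, *Psb28* Glyma10g04630, *ALDO* Glyma12g04150, *GLUPE* and *GAUT* Glyma13g36280 also reached 2-fold. For photosynthesis the number of up-regulated loci was 13 to 16 under all alternatives but a fold of at least 4, where it was 2. With a pseudocount of 1, up-regulated loci fell from 8 to 3 for starch and sucrose and from 2 to 0 for glycolysis and ethanol. They also fell from 2 to 0 for amino acid synthesis and from 1 to 0 for DNA replication. Those of amino acid metabolism and fatty acid fell from 3 to 2 each, and cell cycle and Calvin cycle kept 1 each. The down-regulated locus of ascorbate was no longer called, and 1 of the 2 for starch and sucrose remained. The median of DNA replication turned to 0.10 with centring by length, that of glycolysis and ethanol to -0.11 with a filter of RPKM 5, and that of the tricarboxylic acid cycle to 0.52 without a filter. No named locus changed its direction past the threshold. No paired analysis was possible because each condition had 1 library, and leaving out a replicate could not be done for the same reason.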

Other observations

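Up-regulated loci lay beside one another more often than loci did in general. Among loci that passed the filter, in the order of their names along a chromosome, 16.8% of the up-regulated loci had an up-regulated neighbour, whereas 10.4% of all loci did. For down-regulated loci the shares were 15.5% and 7.72%. Which neighbours are copies of each other was not examined. Over the 20 chromosomes, between 3.71% and 6.07% of transcripts were up-regulated and between 2.51% and 5.05% were down-regulated.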
